A study of Mus musculus with 18 samples.

Results

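The MHC class II antigen presentation genes described here are H2-Aa, H2-Ab1, H2-Eb1, H2-DMa, Cd74 and Ciita, 6 of the 18193 mouse genes named on the arrays. They were taken as every probe set annotated to 1 of these symbols, which gave 14 of 45101 probe sets. Their values were read on 17 arrays of sorted tumor and normal mammary cells. The study sorted 3 mouse mammary tumors by the surface proteins CD29 (integrin beta1) and CD24, in search of genes that mark the tumor-initiating fraction, in that study the CD29 high CD24 high cells. Sorted normal mammary epithelial cells were analysed beside them.

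The tumor groups were CD29 high CD24 high (CD29H CD24H), CD29 high CD24 low (CD29H CD24L), CD29 low CD24 high (CD29L CD24H) and CD29 low CD24 low (CD29L CD24L) cells. Each had 1 array from each of tumors 1, 2 and 7 (n = 3). Tumors 1 and 2 are labelled transplantation generation 1, and no generation is given for tumor 7. The normal groups were CD29 high CD24 positive cells (CD29H CD24P, n = 2), CD29 positive CD24 high cells (CD29P CD24H, n = 2) and CD24 low cells (CD24L, n = 1), from preparations 1 and 2. A Stratagene reference RNA gave 1 further array. The labels give no genotype, strain or age of the animals and no treatment, and they do not say whether the normal preparations came from separate animals, so p-values for normal cells measure the spread between these arrays.

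Class II molecules are surface heterodimers of an alpha and a beta chain that show peptides from endocytosed proteins to CD4 T cells. The invariant chain, encoded by Cd74, fills the groove of new dimers until endosomal proteases cut it away, and the H2-DM dimer then exchanges its last fragment for peptide. Transcription of the chains, of H2-DM and of Cd74 depends on CIITA, a coactivator that binds no DNA itself and is recruited by RFX, CREB and NF-Y proteins seated on the X and Y boxes of the promoters. Dendritic cells, B cells and macrophages carry class II constitutively, and interferon gamma induces it in many other cells, epithelial cells included.

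The 4 H2 members lie on chromosome 17 in the order H2-DMa, H2-Ab1, H2-Aa, H2-Eb1, and the other members lie on other chromosomes. RefSeq promoter windows (mouse build GRCm38.p6, from 250 bases before to 50 after a start) were at hand for 3 of the 6 members, H2-Aa, H2-Eb1 and H2-DMa. They were searched on both strands for an X box core, AACNGATG, and a Y box, TGATTGG. A pair was counted only where the motifs did not overlap. Of 32851 promoters of the same length, 2.32% held the first, 7.82% the second and 0.0487% an X box core followed by a Y box on the same strand. The stretches from 130 to 20 bases before the start are shown for the 2 chain genes whose signal differed between normal populations, with the motifs in capitals.
H2-Aa, chr17:34287844-34287953, minus strand: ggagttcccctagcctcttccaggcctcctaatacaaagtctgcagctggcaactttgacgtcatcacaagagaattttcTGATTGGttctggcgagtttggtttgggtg
H2-Eb1, chr17:34305737-34305846, plus strand: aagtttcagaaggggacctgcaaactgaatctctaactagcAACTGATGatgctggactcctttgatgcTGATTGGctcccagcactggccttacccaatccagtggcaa
The H2-Eb1 promoter held both motifs, with the X box core starting 89 and the Y box 61 bases before the start and 20 bases between them. By these spellings H2-Aa matched the Y box alone, starting 50 bases before the start, and neither H2-DMa window held a match. The class II neighbours H2-DMb1, H2-DMb2 and H2-Eb2 also had the X box core before the Y box, with 20 or 21 bases between them. H2-Oa and H2-Ob matched the Y box alone. X boxes spelled otherwise were not searched for, so genes without a match may still have one.

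Signal intensity was scaled by the authors so that every array had the same trimmed mean, and array medians lay between 71.6 and 104.2 signal units. Differences below are on the log2(intensity + 32) scale, on which dim genes change less than they would without the added constant, with standard errors (SE) and Benjamini-Hochberg adjusted p-values from limma over 10916 genes. A gene was represented by its brightest probe set, and the number of arrays limits the precision. On the CD24L array the 6 epithelial marker genes summed to 1455 units and the 8 fibroblast genes to 228601, so its markers go against its epithelial label. The other normal arrays matched the sort: Krt5, a keratin of basal cells, had 13691 and 13888 units in CD29H CD24P cells, against 54.9 and 73.7 in CD29P CD24H cells. The actin 3'/5' probe ratio, a measure of RNA integrity after amplification, was 14.4 to 99.3 on tumor arrays, against 3.08 to 24.7 on normal arrays.

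By their brightest probe sets, the chain genes were above the array's median signal on every sorted array. H2-Aa encodes the alpha chain of the I-A molecule. Its probe set 1435290_x_at gave 742, 1414 and 627 units in the CD29H CD24H fraction of tumors 1, 2 and 7, against 1223, 2148 and 800.2 units in CD29H CD24L cells. CD29L CD24H cells had 1072, 2454 and 1322 units, and CD29L CD24L cells had 1297, 2201 and 1082 units. Tumor 2 was highest in every fraction, and CD29H CD24H was the lowest fraction within each tumor. Normal CD29H CD24P cells gave 1227 and 1079.95 units, against 2726 and 3742 units in CD29P CD24H cells. The CD24L array stood at 919.8 units and the reference RNA at 82.3 units. The normal CD29P CD24H arrays were thus above all 12 tumor arrays, and the sorted arrays all stood above the reference RNA.

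A second H2-Aa probe set, 1438858_x_at, separated the normal populations further. It gave 1483 and 262 units in CD29H CD24P cells, against 8425 and 9261 units in CD29P CD24H cells. Its tumor values ran between 329.8 and 3888 units, and the reference RNA gave 38.4. The CD29H CD24P arrays of preparations 1 and 2 lay far apart on this probe set but close together on the other. The probe set 1452431_s_at gave 459 and 479 units in CD29H CD24P cells, against 807 and 2059.7 in CD29P CD24H cells, and 69.8 to 1053 in tumor cells. The fourth, 1443783_x_at, stayed at 51.6 units or less on all sorted arrays, below the array medians. Probe sets with the suffixes x and s can bind similar transcripts of this family, so that signal from relatives cannot be told apart.

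H2-Ab1 encodes the beta chain that pairs with the product of H2-Aa. Its brightest probe set gave 299, 679 and 226 units in the CD29H CD24H fraction of tumors 1, 2 and 7, against 361, 509 and 325 units in CD29H CD24L cells. CD29L CD24H cells had 348, 489 and 392 units, and CD29L CD24L cells had 512, 688 and 557 units. CD29H CD24H was the lowest fraction in tumors 1 and 7 and the second highest in tumor 2. Normal CD29H CD24P cells gave 648 and 795 units, against 947 and 1934 units in CD29P CD24H cells. The CD24L array gave 555 units and the reference RNA 90.0. The other 2 probe sets were dimmer, each above the array median on 7 of 17 arrays, with tumor values of 8.29 to 197 units. Both were highest on the CD29P CD24H array of preparation 2, at 348 and 457 units.

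H2-Eb1 encodes the beta chain of the I-E molecule and has 1 probe set. It gave 286, 696 and 105.4 units in CD29H CD24H cells, against 422, 278 and 297 units in CD29H CD24L cells. CD29L CD24H cells had 287, 577 and 599 units, and CD29L CD24L cells had 353, 1054 and 357 units. The 3 CD29H CD24H arrays spanned most of the tumor range, with tumor 7 the lowest of all sorted arrays. Normal CD29H CD24P cells gave 609 and 661 units, against 1650.4 and 2304 units in CD29P CD24H cells. The CD24L array gave 338 units and the reference RNA 25.1.

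The loading genes behaved less uniformly. Cd74 gave 252, 191 and 84.7 units in CD29H CD24H cells, against 308, 382 and 391 units in CD29H CD24L cells. CD29L CD24H cells had 362, 522 and 399 units, and CD29L CD24L cells had 185, 807 and 368 units. The 3 CD29H CD24H values were below the other 9 tumor values except for CD29L CD24L cells of tumor 1. Normal CD29H CD24P cells gave 476 and 531 units, against 596 and 2483 units in CD29P CD24H cells, so that the mean of CD29P CD24H cells rested on 1 bright array. The CD24L array gave 326 units and the reference RNA 438.

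H2-DMa, the alpha chain of the peptide exchange dimer, had the narrowest range. It gave 139.5, 208 and 109 units in CD29H CD24H cells, against 142, 127 and 168 in CD29H CD24L cells. CD29L CD24H cells had 258, 255 and 124 units, and CD29L CD24L cells had 124, 297 and 168 units. Normal CD29H CD24P cells gave 163 and 169.8 units, against 273 and 255 units in CD29P CD24H cells. The tumor fractions overlapped throughout, while the normal pairs did not. The CD24L array gave 171 units and the reference RNA 213, within the range of the sorted cells, and a second probe set stayed at 67.8 units or less.

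Ciita was not measurable above the low range of these arrays. Its probe set 1421210_at ran from 3.25 to 62.2 units on tumor arrays and from 27.3 to 79.7 on normal arrays, against 66.0 in the reference RNA. All 3 of its probe sets were below the array median on all 17 sorted arrays. It did not pass the filter that left out the 40% of genes with the lowest mean, so 5 members were tested by gene. Tested by probe set without a filter over 34945 probe sets, the 3 Ciita probe sets had adjusted p-values of 0.858, 0.986 and 0.998 in CD29H CD24H against the other tumor fractions, and 0.939, 0.468 and 0.885 in CD29H CD24P against CD29P CD24H cells.

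**Figure D1:**
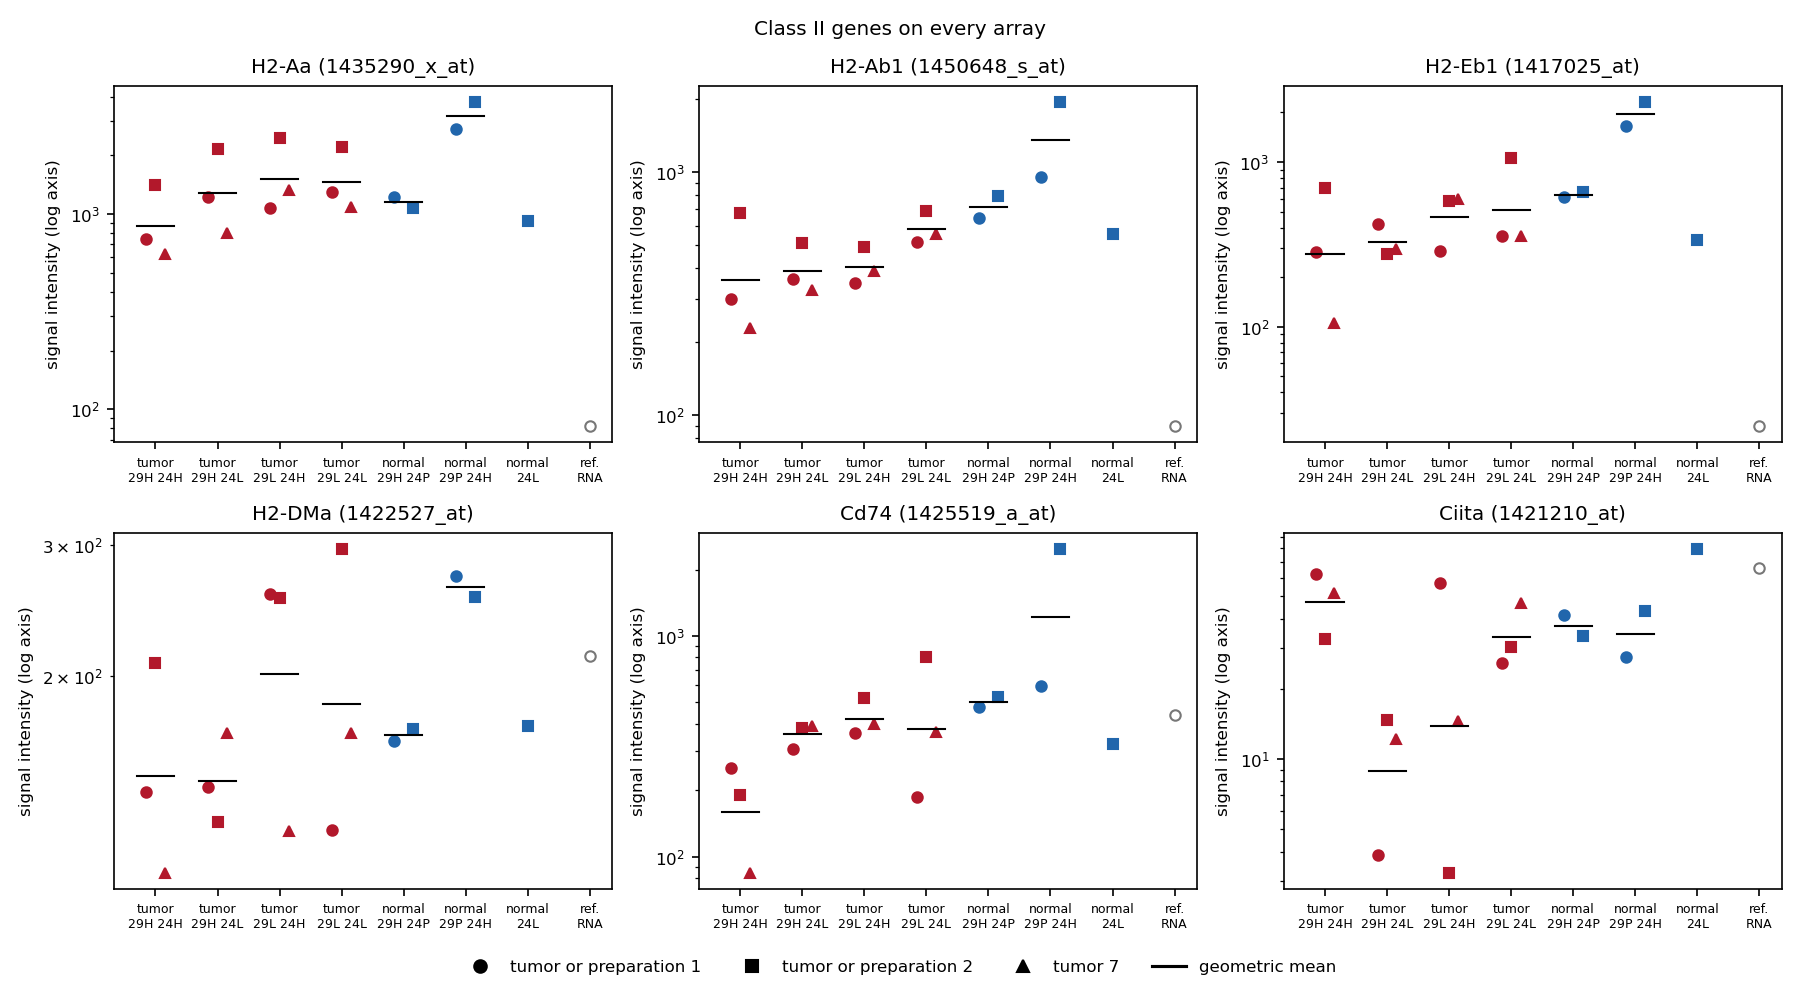
Signal intensity (log axis) of each class II gene on every array, by sorted population, with circles for tumor or preparation 1, squares for 2, triangles for tumor 7 and lines for geometric means. The chain genes are highest in normal CD29P CD24H cells, H2-Aa of tumor 2 lies above the other tumors in each fraction, and Ciita stays at 79.7 units or less.

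In order of the group means on the log2 scale, H2-Eb1 was highest in normal CD29P CD24H cells, at 10.95 ± 0.33 (SD, n = 2). Normal CD29H CD24P cells followed at 9.38 ± 0.08 (n = 2), then CD29L CD24L at 9.09 ± 0.86, CD29L CD24H at 8.96 ± 0.55, CD29H CD24L at 8.49 ± 0.30 and CD29H CD24H tumor cells at 8.31 ± 1.20 (n = 3 each). The step between the top populations exceeded their SDs, and each later step was smaller than the SD of at least 1 of its neighbours. Tumor CD29H CD24H cells were also the lowest and normal CD29P CD24H cells the highest sorted group for H2-Ab1 (8.62 ± 0.76 and 10.44 ± 0.71), Cd74 (7.61 ± 0.66 and 10.30 ± 1.42) and H2-Aa by 1435290_x_at (9.82 ± 0.60 and 11.66 ± 0.32). For H2-DMa the lowest group was CD29H CD24L, at 7.47 ± 0.16, next to CD29H CD24H at 7.49 ± 0.39.

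The study's main question was what sets CD29H CD24H tumor cells apart from the other tumor fractions. Set against the mean of the other 3 fractions, Cd74 differed by -1.11 ± 0.39 (SE, 95% interval -1.95 to -0.27), with an adjusted p of 0.535 by limma. H2-Aa by 1435290_x_at differed by -0.68 ± 0.39 (adjusted p = 0.824), H2-Eb1 by -0.54 ± 0.48 (0.919), H2-Ab1 by -0.30 ± 0.32 (0.943) and H2-DMa by -0.21 ± 0.32 (0.973). No member passed, and by the same test 0% of the 10916 genes passed, with 759 genes at an unadjusted p under 0.05. With the tumor as a block, 0.779% of genes passed but no member: the adjusted p was 0.109 for Cd74 and 0.135 for H2-Aa. The estimates of the 5 tested members were all negative, with a median of -0.54, while over all genes 5419 of 10916 were negative. Over the alternative settings H2-Ab1 ran from -0.73 to 0.13 and H2-Eb1 from -1.14 to 0.06. H2-Aa, H2-DMa and Cd74 stayed negative. Tested by probe set, the dimmer probe sets of H2-Ab1 had positive estimates, 0.49 ± 0.47 and 0.20 ± 0.50, as did that of H2-DMa, 0.07 ± 0.33. Cd74 passed in the blocked fit once the CD29L CD24L array of tumor 1 was left out (adjusted p = 0.0439), or all of tumor 1.

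Transcripts of several other cell types also had negative estimates in this pooled comparison, unevenly over the other fractions, and their part in these differences was not tested. All 13 tested macrophage and myeloid genes had negative estimates in CD29H CD24H cells, with a median of -0.78, and all 5 pan-leukocyte genes did, with a median of -0.80. All 8 fibroblast genes had negative estimates with a median of -1.46. Of 7 T cell genes on the arrays 2 were bright enough to be tested, Icos at -2.39 ± 0.52 and Cd8a at -2.03 ± 0.53. Icos read 5697, 927 and 3525 units in CD29L CD24L cells of tumors 1, 2 and 7, against 7.65 to 234 on the other tumor arrays. A gene tested because a comparison fraction is bright leans negative here, so these 2 signs do not describe T cell transcripts as a set. None of the genes of these 4 lists passed the unblocked test, with 5 fibroblast genes at an unadjusted p under 0.05. With the tumor as a block Icos alone of them passed (adjusted p = 0.0291 by limma). The 2 dendritic and 2 endothelial genes tested also had negative estimates, with medians of -0.52 and -0.81. The 1 tested B cell gene, Cd22, had a positive estimate of 0.55. Epithelial genes were split, with 2 positive and 4 negative. Against CD29H CD24L, CD29L CD24H and CD29L CD24L cells in turn, the fibroblast medians were -3.22, -0.22 and -0.66. Pan-leukocyte medians were -0.64, -0.29 and -1.94, and macrophage medians -0.70, -0.38 and -1.24. Against CD29L CD24H cells 2 of 8 fibroblast and 2 of 5 pan-leukocyte estimates were positive, and all 13 macrophage estimates were negative. Summed fibroblast signal was 15815 to 43649 units in CD29H CD24H cells, against 156075 to 195052 in CD29H CD24L, 9899 to 88420 in CD29L CD24H and 34579 to 67327 in CD29L CD24L cells. Summed macrophage signal was 13212 to 22523 units in CD29H CD24H cells, against 18003 to 37815 in CD29H CD24L cells. It was 11560.1 to 49797 in CD29L CD24H and 15564 to 69521 in CD29L CD24L cells. Cd14 made up much of this sum on some arrays, with 17665 of 22498 units in CD29H CD24H cells of tumor 7. Cd14 also read 10484 and 12377 units in normal CD29P CD24H cells, where C1qb read 15.2 and 37.7. Summed pan-leukocyte signal was 4272 to 8821 units in CD29H CD24H cells, against 3357 to 20552 over the other 9 tumor arrays. Fewer cells of a type and less RNA per cell cannot be told apart in such bulk samples.

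The rest of the pathway gave no call in the same unblocked comparison: none of 8 tested loading and processing genes, 13 transcription and interferon gamma genes, 3 costimulation genes or 14 class I genes passed. The smallest p-values in their lists belonged to Ctsd, cathepsin D (-0.92 ± 0.40, adjusted p = 0.685 by limma), Irf8 (-1.08 ± 0.30, 0.441), Cd274, the ligand PD-L1 (-1.16 ± 0.33, 0.441), and Psmb10 (-0.45 ± 0.28, 0.859). Cd274 read 352, 269.6 and 163 units in CD29H CD24H cells, against 355.5 to 1029 units over the other 9 tumor arrays. It was lower in CD29H CD24H cells with the tumor as a block (adjusted p = 0.0402), the sole gene of these lists to pass there. Ifng was at 39.7, 34.3 and 39.7 units in CD29H CD24H cells, against 428, 17.8 and 232 units in CD29L CD24L cells and 19.8 units or less on the other tumor arrays. Summed T cell signal was 328.5, 291 and 98.1 units in CD29H CD24H cells, against 8945, 1578 and 5618 units in CD29L CD24L cells, so that among tumor arrays the T cell sum was highest on the same 2 arrays as Ifng. Icos, a costimulatory receptor of T cells, was lower in CD29H CD24H than in CD29L CD24L cells by -5.08 ± 0.64 (adjusted p = 0.0172 by limma).

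The pairwise comparisons gave no member past the threshold either, with or without the tumor as a block. Of all genes, 2.17% passed between CD29H CD24H and CD29H CD24L cells (4.93% blocked), 0% between CD29H CD24H and CD29L CD24H cells (0.00916% blocked), and 0.0366% between CD29H CD24H and CD29L CD24L cells (0.531% blocked). Cd74 differed by -1.004 ± 0.48, -1.22 ± 0.48 and -1.10 ± 0.48 in these 3 comparisons. Among the other 3 fractions the member differences were small, between -0.60 ± 0.59 for H2-Eb1 (CD29H CD24L minus CD29L CD24L) and 0.12 ± 0.48 for Cd74 (CD29L CD24H minus CD29L CD24L). Of all genes, 1.58% passed there between CD29H CD24L and CD29L CD24H cells (4.09% blocked), 1.14% between CD29H CD24L and CD29L CD24L cells (4.42% blocked) and 0.0183% between CD29L CD24H and CD29L CD24L cells (0.0916% blocked). Averaged over CD24, CD29 high minus CD29 low cells differed by -0.66 ± 0.34 for Cd74 and -0.63 ± 0.41 for H2-Eb1 (0% of genes passed, 0.879% blocked). Averaged over CD29, CD24 high minus CD24 low cells differed by -0.44 ± 0.34 for Cd74 and 0.07 ± 0.28 for H2-DMa (0.733% passed, 3.85% blocked). The interaction of both gates was -1.13 ± 0.67 for Cd74 and 0.38 ± 0.55 for H2-Ab1 (0% passed, 1.93% blocked).

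The tumor of origin took differing shares of the spread. It took 67.1% of the sum of squares of H2-Aa (1435290_x_at) over the 12 tumor arrays and 47.3% of that of H2-Ab1, against a median of 38.5% over all genes. Its share lay below that median for H2-Eb1 (31.1%), H2-DMa (29.6%) and Cd74 (15.9%). For Cd74 the sorted fraction took 48.9%, against a median of 23.3% over all genes. The 4 tumor 2 arrays lay above the other 8 for H2-Aa, a pattern found for 3.04% of genes and for no other tested member. Tumor 2 also had the highest summed macrophage signal in each fraction, in CD29H CD24H cells by 22523 against 22498 units in tumor 7. The part of this signal was not tested. H2-Aa was the sole tested member with CD29H CD24H lowest in each of the 3 tumors, a pattern found for 3.29% of genes. It held for probe set 1435290_x_at only: by 1438858_x_at CD29H CD24L was lowest in tumors 1 and 7, and by 1452431_s_at it was lowest in tumor 2.

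Normal cells gave the clearest class II difference. Between CD29H CD24P and CD29P CD24H cells, gates known to enrich basal and luminal cells, H2-Aa and H2-Eb1 were lower in the CD29H CD24P cells. H2-Eb1 was 2.97-fold lower (-1.57 ± 0.27, adjusted p = 0.00187 by limma). H2-Aa was 13.3-fold lower by 1438858_x_at (-3.73 ± 0.60, adjusted p = 0.00135), and tested by probe set, 1435290_x_at gave -1.45 ± 0.23 (adjusted p = 0.0133). These 2 of 5 tested members stand beside 14.6% of all genes lower, 14.3% higher and 28.9% changed in either direction. H2-Ab1 differed by -0.89 ± 0.34 (adjusted p = 0.0845), Cd74 by -1.23 ± 0.53 (0.115) and H2-DMa by -0.58 ± 0.27 (0.141), none past the threshold. The dim second probe set of H2-DMa did pass when tested by probe set (-1.11 ± 0.21, adjusted p = 0.0212), unlike the brighter one (0.257). Both CD29H CD24P arrays were below both CD29P CD24H arrays for all 5 tested members, as for 33.3% of all genes. Without the CD29P CD24H array of preparation 1, Cd74 and H2-Ab1 passed too, and H2-Aa moved to -1.67 ± 0.25. Without that of preparation 2 H2-Aa moved to -1.22 ± 0.25. In both of these fits its brightest probe set was another. By 1438858_x_at it moved to -4.92 ± 0.44 without the CD29H CD24P array of preparation 1 and to -2.55 ± 0.41 without that of preparation 2, and it passed in all 4 fits. In 1 fit of all 17 arrays neither gene passed (adjusted p of 0.139 and 0.202).

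**Figure D2:**
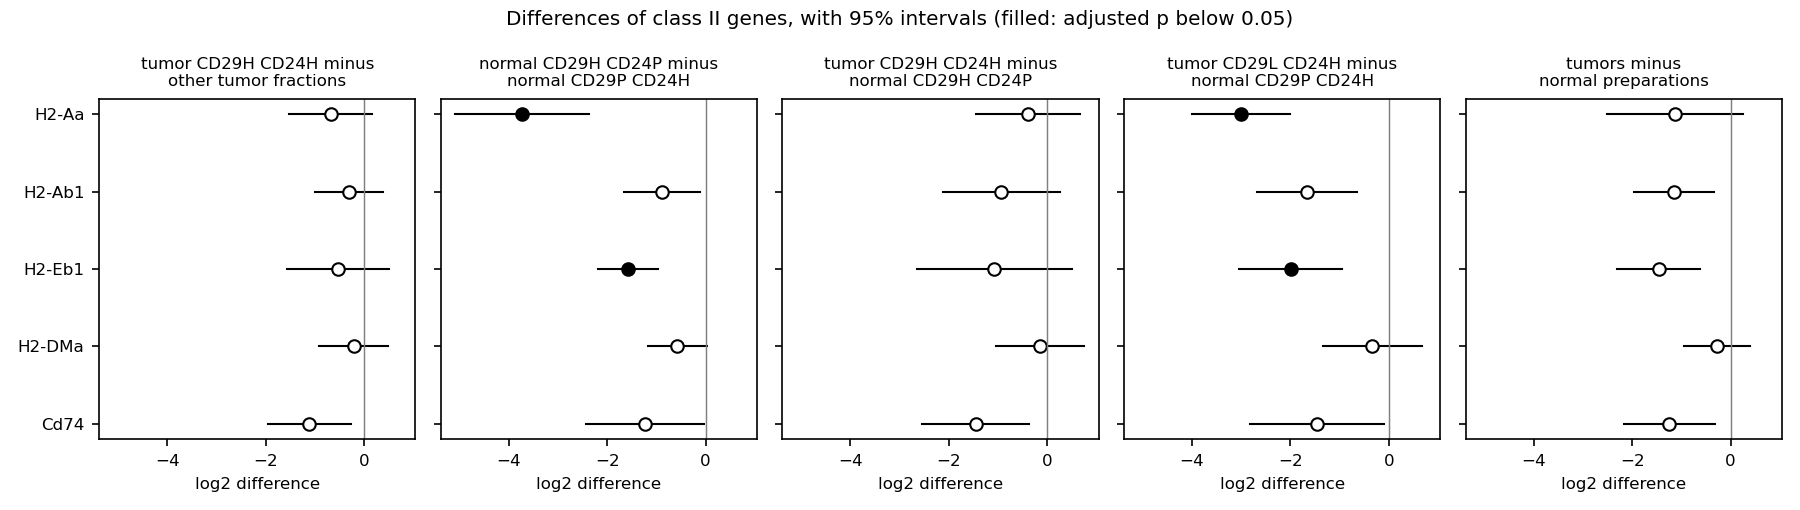
Log2 differences of the 5 tested class II genes with 95% intervals in 5 comparisons, named above each panel, filled where the adjusted p was below 0.05. Filled points are H2-Aa, there read by 1438858_x_at, and H2-Eb1. Both were lower in normal CD29H CD24P than in CD29P CD24H cells, and lower in tumor CD29L CD24H than in normal CD29P CD24H cells.

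Other class II genes were read from a list of the loading and processing pathway, with 12 of 15 on the arrays and 8 tested. H2-Ea, the alpha chain that pairs with the product of H2-Eb1, had 2598 and 2669.7 units in CD29H CD24P cells, against 9503 and 11448 units in CD29P CD24H cells. It was lower in CD29H CD24P cells by -1.97 ± 0.23 (adjusted p = 0.000170). Lgmn, an endosomal protease that takes part in antigen processing, was higher by 0.88 ± 0.27 (0.0379). Ctss, cathepsin S, which makes the last cuts in the invariant chain, differed by -0.45 ± 0.24 (0.201), and H2-DMb2, a beta chain of the exchange dimer, by -1.37 ± 0.60 (0.121). The list had 1 gene lower, 1 higher and 6 that did not pass, with a median difference of -0.09, against -0.02 over all genes.

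Of the transcription and interferon gamma signalling list, 13 of 16 genes were tested and 3 were lower in CD29H CD24P cells, none higher. Rfx5, the DNA-binding subunit of the X box factor, had 543 and 524 units in CD29H CD24P cells, against 1539.9 and 1496 in CD29P CD24H cells (-1.45 ± 0.24, adjusted p = 0.00167). Irf8, a transcription factor of myeloid and B cells, was lower by -1.51 ± 0.26 (0.00222), and Jak2, a kinase of the interferon gamma receptor, by -1.23 ± 0.26 (0.00603). The other subunits of the X box factor did not pass, with Rfxap at 0.68 ± 0.31 and Rfxank at 0.55 ± 0.31. Ifng itself read 2.88 and 9.97 units in CD29H CD24P cells, against 0.685 and 4.68 in CD29P CD24H cells, far below the array medians. Of the costimulation list, 5 of 6 genes were tested and 2 were lower, the T cell ligands Cd86 (-1.53 ± 0.30, adjusted p = 0.00397) and Cd274 (-1.27 ± 0.30, 0.0112).

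The class I pathway, which presents peptides of cytosolic proteins to CD8 T cells, was lower for 7 of 14 tested genes in CD29H CD24P cells and higher for none. Its median difference was -0.81. Tap2, a subunit of the peptide transporter, differed by -2.17 ± 0.25 (adjusted p = 0.000191), and the immunoproteasome subunits Psmb8, Psmb9 and Psmb10 by -1.92 ± 0.28 (0.000772), -1.82 ± 0.25 (0.000535) and -1.24 ± 0.27 (0.00820). Tapbp, which tethers class I molecules to the transporter, was lower by -1.33 ± 0.23 (0.00183) and B2m, the class I light chain, by -0.82 ± 0.18 (0.00814).

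Leukocyte transcripts also differed between the normal gates. Of the pan-leukocyte genes, 4 of 5 were lower in CD29H CD24P cells, with summed signals of 1062 to 1754 units, against 3750.0 to 5266 units in CD29P CD24H cells. Ptprc, the common leukocyte antigen, had 227 and 138 units in CD29H CD24P cells, against 728 and 573 in CD29P CD24H cells. The macrophage and myeloid list was split, with 2 of 7 tested genes higher and 1 lower. The higher genes were C1qb and Csf1r. C1qb was higher by 1.88 ± 0.29 on its brightest probe set in this fit (adjusted p = 0.00114 by limma). C1qa, a complement gene like C1qb, was not among the tested genes. It had 72.8 and 132 units in CD29H CD24P cells, against 2.83 and 18.8 in CD29P CD24H cells. Csf1r was higher by 0.90 ± 0.30 (adjusted p = 0.0479 by limma), with 800.4 and 605 units in CD29H CD24P cells, against 286 and 448 in CD29P CD24H cells. Lyz2 did not pass (-0.19 ± 0.30, 0.678). It had 154 and 131 units in CD29H CD24P cells, against 140.4 and 197 in CD29P CD24H cells. Cd14 had 906 and 1089 units in CD29H CD24P cells, against 10484 and 12377 in CD29P CD24H cells. Of 8 fibroblast genes 1 was higher and none lower, no dendritic gene passed of 3 tested and no T cell gene of 2, no B cell gene was bright enough to be tested, and summed B cell signals were 261 to 329 units in CD29H CD24P cells, against 254 to 545 in CD29P CD24H cells. No marker was listed at 0, and the part of leukocytes in the class II difference was not tested.

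**Figure D3:**
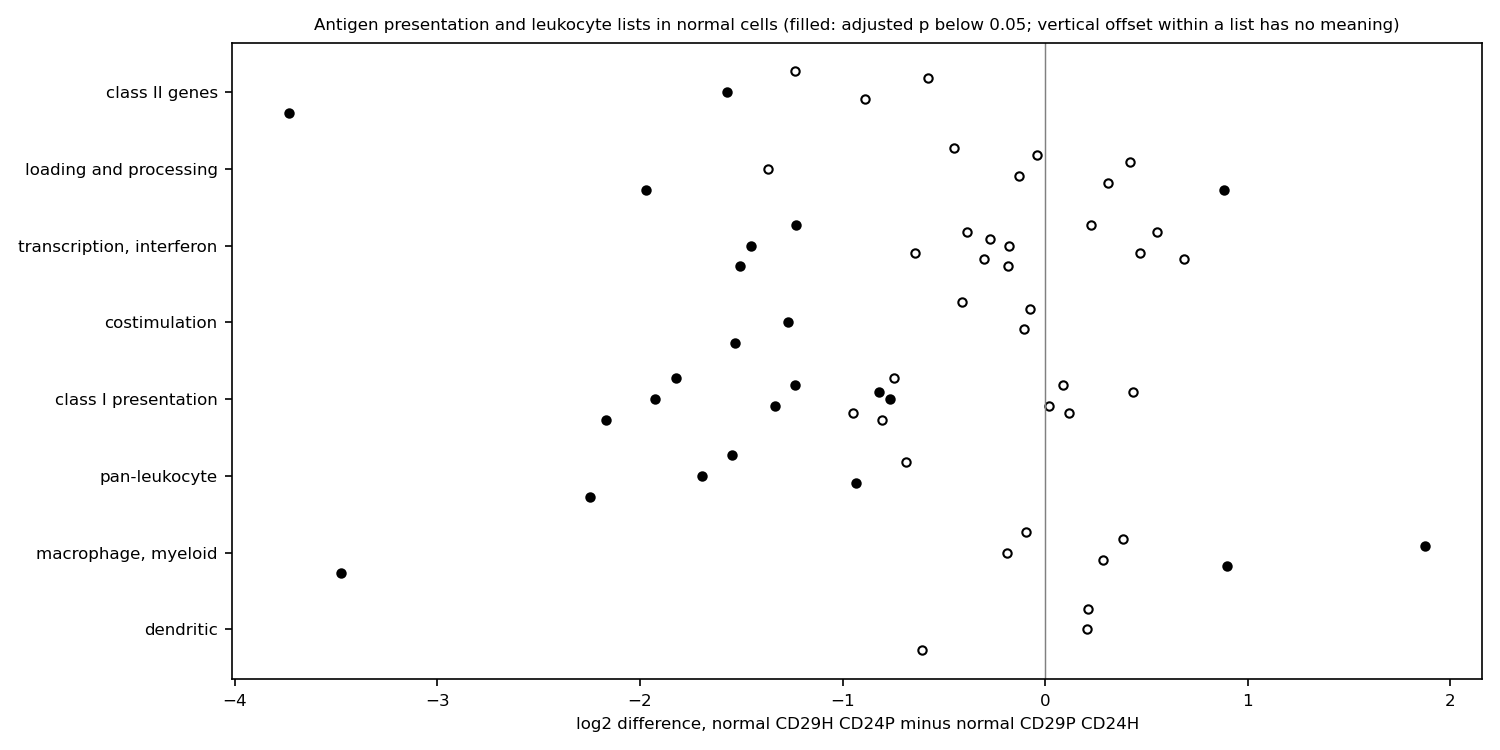
Log2 difference, normal CD29H CD24P minus normal CD29P CD24H cells, of each tested gene of 8 lists, filled where the adjusted p was below 0.05. Class I genes have 7 of 14 filled points below 0 and pan-leukocyte genes 4 of 5, while filled macrophage and myeloid points lie on both sides.

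Tumor cells were set against normal cells of the like gate, which share CD24 high or CD29 high staining only by name. For CD29L CD24H tumor cells against normal CD29P CD24H cells, H2-Aa was 8.02-fold lower by 1438858_x_at (-3.004 ± 0.43, adjusted p = 0.00926 by limma) and H2-Eb1 3.99-fold lower (-1.996 ± 0.46, 0.0448). Other H2-Aa probe sets lay closer together. By 1435290_x_at the means were 10.60 ± 0.61 (SD) in tumor and 11.66 ± 0.32 in normal cells, and by 1452431_s_at 8.19 ± 0.46 and 10.37 ± 0.93. Of all genes 2.75% were lower, as many higher, and 5.5% changed in either direction. H2-Ab1 differed by -1.66 ± 0.44 (0.0691), Cd74 by -1.47 ± 0.59 (0.182) and H2-DMa by -0.33 ± 0.44 (0.681). The tumor arrays were below both normal arrays for H2-Aa, H2-Ab1, H2-Eb1 and Cd74, as for 20.3% of genes. Neither call held when either CD29P CD24H array was left out, and H2-Eb1 did not pass without the CD29L CD24H array of tumor 1 or of tumor 2. Without the CD29P CD24H array of preparation 1 the brightest H2-Aa probe set became 1435290_x_at, with a difference of -1.28.

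In the same comparison H2-Ea was lower by -2.24 ± 0.45 (adjusted p = 0.0304) and Psmb10 by -2.04 ± 0.40 (0.0287), the sole gene of the 14 class I genes to pass. Ctss differed by 2.51 ± 0.63 (0.0594), with 9908, 29595 and 5670 units in CD29L CD24H tumor cells, against 2138 and 1963 in CD29P CD24H cells. Of 11 tested macrophage genes 4 were higher in the tumor cells and none lower, and 1 of 8 fibroblast genes was higher. Some macrophage genes dim in normal cells passed the filter through the tumor arrays, as C1qa did, at 2.83 and 18.8 units in CD29P CD24H cells. Such genes could be called only as higher, so the macrophage count does not measure a direction of that list. C1qb, by its brightest probe set, had 843, 5954 and 1319 units in the tumor cells, against 15.2 and 37.7 in the normal cells. Of the pan-leukocyte genes only Cd52 passed, lower by -2.25 ± 0.49 (0.0397), while Ptprc differed by 0.10 ± 0.68 (0.942).

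For CD29H CD24H tumor cells against normal CD29H CD24P cells, no member passed, where 5.29% of genes did (2.87% lower and 2.42% higher). Cd74 differed by -1.46 ± 0.46 (adjusted p = 0.113 by limma), H2-Eb1 by -1.07 ± 0.67 (0.360), H2-Ab1 by -0.93 ± 0.50 (0.297), H2-Aa by 1435290_x_at by -0.39 ± 0.45 (0.631) and H2-DMa by -0.14 ± 0.38 (0.845). Other H2-Aa probe sets went both ways. By 1438858_x_at the mean was higher in tumor cells, at 9.88 ± 0.41 (SD) against 9.38 ± 1.67, and by 1452431_s_at lower, at 7.55 ± 0.95 against 8.97 ± 0.04. Ctss was higher in the tumor cells by 2.43 ± 0.35 (0.0153), the sole gene of the 4 pathway lists to pass. Of the other cell types, 3 of 8 fibroblast, 2 of 11 macrophage and 2 of 5 pan-leukocyte genes were higher in the tumor cells and none lower, and their part was not tested. Some of these macrophage genes were dim in normal cells and passed the filter through the tumor arrays.

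With 1 mean per tumor or normal preparation, no member passed between tumors and normal cells, where 7.68% of genes did (3.41% lower and 4.27% higher). H2-Eb1 differed by -1.46 ± 0.36 (adjusted p = 0.0535 by limma), H2-Ab1 by -1.15 ± 0.35 (0.0889), Cd74 by -1.24 ± 0.40 (0.101), H2-Aa by 1438858_x_at by -1.12 ± 0.59 (0.265) and H2-DMa by -0.27 ± 0.28 (0.570). H2-Eb1 passed without all arrays of tumor 2, or without its CD29H CD24H or CD29L CD24L array. All 12 tumor arrays were below both CD29P CD24H arrays for H2-Aa, H2-Ab1 and H2-Eb1, as for 9.77% of genes. Ctss (2.58 ± 0.35, adjusted p = 0.0109) and Cd274 (1.89 ± 0.32, 0.0191) were higher in tumors and Psmb10 was lower (-1.12 ± 0.25, 0.0440). Macrophage genes were higher for 7 of 12 tested and lower for none, with a median difference of 2.47. Here too some of them were dim in normal cells and passed the filter through the tumor arrays, so the direction was partly fixed by it. Fibroblast genes were higher for 7 of 8 and lower for none (median 2.78), pan-leukocyte genes for 2 of 5, and Kdr, the 1 endothelial gene tested, was higher by 1.48 ± 0.34 (adjusted p = 0.0455 by limma). The actin 3'/5' ratios given above also differed between tumor and normal arrays, and the part of these cell types and ratios was not tested.

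The normal difference between gates was compared with that between the like tumor gates, CD29H CD24H minus CD29L CD24H, a test added after seeing the data. By gene no member passed, where 13.9% of genes did: the tumor difference minus the normal one was 0.92 ± 0.62 for H2-Eb1 (adjusted p = 0.380), 0.73 ± 0.47 for H2-Ab1 (0.358), 0.67 ± 0.41 for H2-Aa by 1435290_x_at (0.328), 0.19 ± 0.47 for H2-DMa (0.849) and 0.01 ± 0.58 for Cd74 (0.996).

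**Figure D4:**
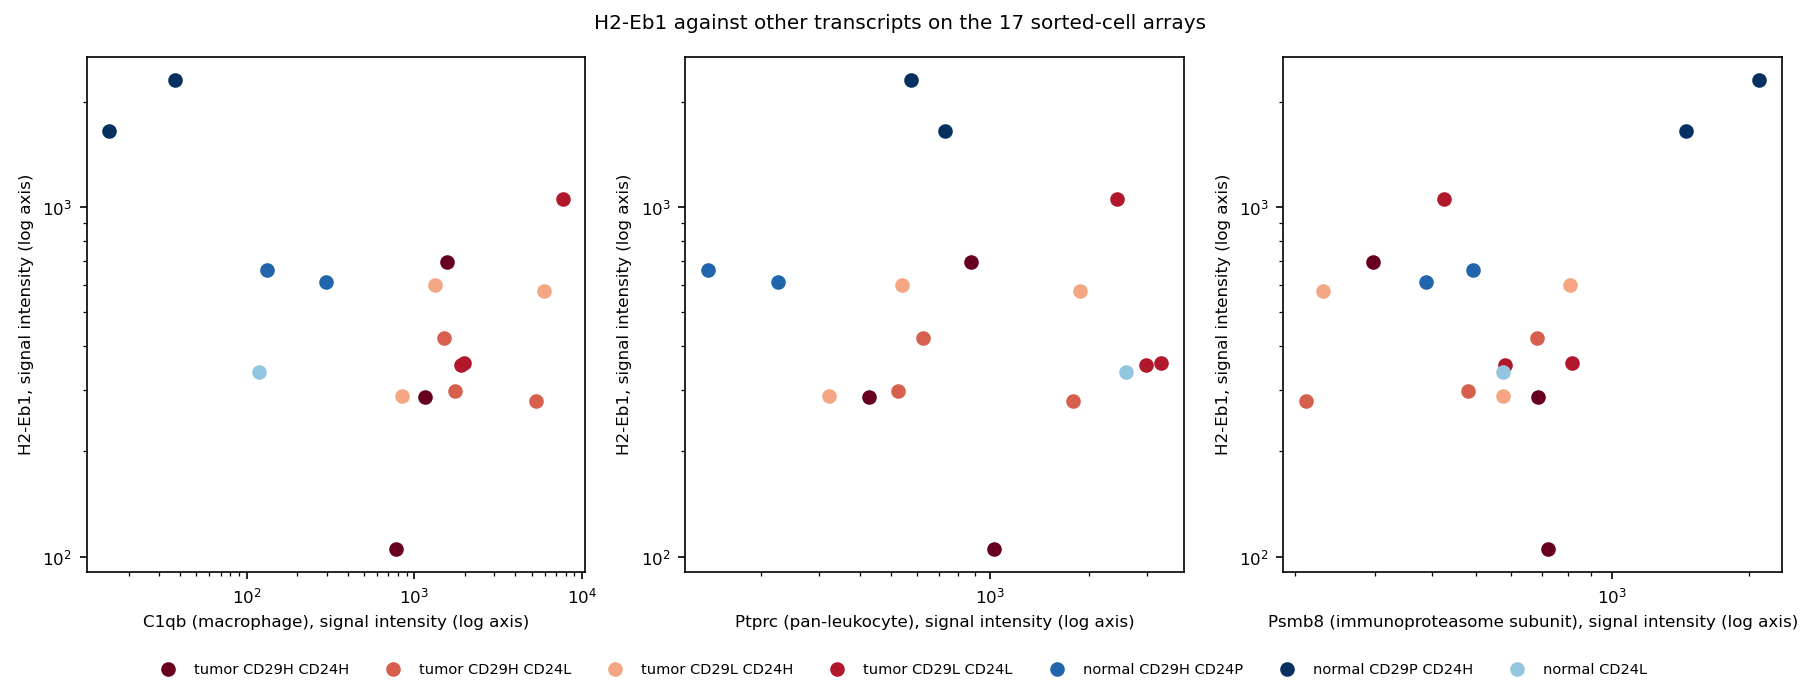
H2-Eb1 signal against C1qb, Ptprc and Psmb8 signal on the 17 sorted-cell arrays, all axes logarithmic, 1 point per array, coloured by population. The normal CD29P CD24H arrays combine the highest H2-Eb1 with C1qb of 15.2 and 37.7 units, and with the highest Psmb8, 1454 and 2113 units.

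The members followed one another to differing degrees. Over the 12 tumor arrays, the Pearson correlation of each tested member with the mean of the other tested members ran from 0.655 for H2-DMa to 0.831 for H2-Eb1, and over the 17 sorted arrays from 0.689 for H2-DMa to 0.915 for H2-Eb1. Arrays of 1 tumor share their source, so these are descriptions. Of all other genes, the one most like the members' mean over the 12 tumor arrays was Cd86 (r = 0.954), a costimulatory ligand of antigen presenting cells, followed by Szrd1 (0.952), Cers2 (0.914), a ceramide synthase, and Bcl3 (0.903), a regulator of NF-kappaB. Over the 17 sorted arrays it was Card19 (0.916), followed by H2-Ea (0.912). Cd86 had 104, 312 and 53.9 units in CD29H CD24H cells and 599.5 in CD29L CD24L cells of tumor 2, its highest value.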

How the data were processed

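The data are 18 one-colour Affymetrix arrays: 12 of sorted tumor cells, 5 of sorted normal cells and 1 of a reference RNA. RNA was isolated with a PicoPure kit and amplified in a T7 two-cycle procedure, per the labels' protocols. The authors deposited linear signal intensity. Per the submitters' processing notes GCOS was used, without a version. On all arrays the deposited values had the same 2% trimmed mean. The design text names a reference RNA for normalization, with the way it was used not given in the sources used here. Detection calls were not used here.

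Gene symbols were those of GEO's platform annotation: 34945 probe sets had 1 symbol, 932 several and 9160 none, and 64 controls were left out. A gene was read from the brightest of its probe sets on the arrays fitted, so that H2-Aa is read from 1435290_x_at in some fits and 1438858_x_at in others. Genes in the lowest 40% by mean were dropped. Linear models of log2(intensity + 32) were made in R 4.3.3 by limma 3.58.1, with eBayes(trend = TRUE), Benjamini-Hochberg adjustment over 10916 genes and a threshold of 0.05. Figures used matplotlib 3.10.9 in Python 3.11.15. The procedure was tested on simulated data with independent arrays, and so not under the pairing of the tumor arrays.

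Tumor numbers pair the tumor arrays, which come from the same tumor: the correlation of their deviations from the group means was 0.389 to 0.728 for 18 pairs within a tumor and -0.458 to -0.0526 between tumors. Deviations from a group mean cancel out over its arrays, so the negative values between tumors follow in part from the method. The 2 normal preparations shared 1 value by construction, 0.0552. Alternatives were an offset of 1 or 4 times as large, a shift to equal medians or quantile normalization, a 60% filter or none, the mean of a gene's probe sets or each by itself, no intensity trend, a replicate block, a random block, all 17 arrays in 1 fit, and leaving out arrays or tumors.

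The members and lists were chosen with earlier results of these data known. Up to 6 genes per pathway list were named, those with the smallest p in the comparison, and the genes most like the members' mean by Pearson correlation. The marker genes, Rfxap and Rfxank, Ifng, and the lists' genes with values in several comparisons were named after their values were seen.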

Additional observations from a re-analysis of the deposited data

Results flagged for a closer look

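H2-Aa read by probe set 1438858_x_at differed between the tumor and the normal gates. Tumor CD29H CD24H minus CD29L CD24H, less normal CD29H CD24P minus CD29P CD24H, came to 3.51 ± 0.59 on the log2 scale (adjusted p = 0.00469 by limma over 34945 probe sets, 3 tumors against 2 preparations). Probe set 1435290_x_at gave 0.67 ± 0.37 (adjusted p = 0.421) and 1452431_s_at 0.76 ± 0.52 (0.533), so that the call rests on 1 of the probe sets. This is the probe set with 1483 and 262 units on the normal CD29H CD24P arrays, against 8425 and 9261 on the CD29P CD24H arrays.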

How the results depend on the processing

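No called member difference reversed under any alternative run. In the 10 tumor comparisons the count of class II genes past the threshold was 0 in every setting, with the exception of CD29H CD24H against the other fractions, which ran from 0 to 1 when arrays or tumors were left out of the blocked fit. Against normal CD29H CD24P cells it was 0 throughout. Between the normal gates the 2 calls became 4 with the replicate block (Cd74, H2-Aa, H2-Ab1, H2-Eb1), 3 with the mean of probe sets (H2-DMa added, adjusted p = 0.0277 by limma) and 0 in 1 fit of all 17 arrays, and ran from 2 to 4 without single arrays; the 2 normal preparations share only a number. For CD29L CD24H tumor against normal CD29P CD24H cells the 2 calls became 1 with quantile normalization, no filter or each probe set (H2-Aa), the mean of probe sets (H2-Eb1) or all 17 arrays (H2-Ab1), and ran from 0 to 2 without single arrays or tumors. For tumors against normal preparations, 0 became 1 with an offset 4 times as large or the mean of probe sets (H2-Eb1) and 2 with the median shift (H2-Ab1, H2-Eb1), and ran from 0 to 1 without single arrays or tumors. For the difference between the gates, 0 became 1 with an offset 4 times as large, the mean of probe sets or each probe set (H2-Aa), and ran from 0 to 2 without single arrays. The causes were not tested.

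Counts over all genes moved by more than 1.5 times. The replicate block gave 85 against 0 for CD29H CD24H against the rest, 538 against 237, 1 against 0 and 58 against 4 for its pairwise comparisons, 447 against 173, 483 against 124 and 10 against 2 among the other fractions, and 96 against 0, 420 against 80 and 211 against 0 for the CD29 average, CD24 average and interaction. Over all settings the normal gates ran from 855 to 4903 (3156 in the reported fit), CD29H CD24H tumor against normal from 3 to 1474 (577), CD29L CD24H tumor against normal from 0 to 1141 (600), tumors against normal from 365 to 1591 (838) and the difference between gates from 673 to 2141 (1512). Ciita was below the array median on all sorted arrays, and no detection limit was estimated here.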
